A study of Mus musculus with 5 samples.

Results

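The genes described here are S100a8 and S100a9, which encode the 2 subunits of calprotectin. They were taken by symbol from the gene tables of the libraries, where they are 2 of 55450 genes, and no measured value entered the choice. Their UMIs (unique molecules, each counted as 1) were followed per cell in every library, and the genes that varied with them were ranked across GMP cells.

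All cells were lineage-negative, c-Kit-positive progenitors sorted from bone marrow of wild-type Balb/C mice aged 8 to 12 weeks, and the labels name no treatment. LMPP, the lymphoid-primed multipotent progenitor (positive for Sca-1, CD34 and Flt3), has 1 library. CMP, the common myeloid progenitor (negative for Sca-1, positive for CD34, low for CD16/32), also has 1 library. GMP, the granulocyte-monocyte progenitor (negative for Sca-1, positive for CD34, high for CD16/32), has 3 libraries that the series calls biological replicates. It is not stated whether they came from separate animals, so the spread given is one between samples. The lineage cocktail held Gr-1 and CD11b antibodies, which bind maturing neutrophils. The cells kept numbered 7511 in LMPP and 6880 in CMP. GMP replicates 1, 2 and 3 kept 8429, 9016 and 7334. Deposited UMIs ranged from 90067195 to 137141095 per library and median UMIs per cell from 9195 to 15082. Between 13 and 33 cell barcodes were shared by any pair of libraries (0.176% to 0.399% of the smaller). Levels are given as CPM, the UMIs of a gene scaled to the same total in every library. The gate genes followed the sorts. Ly6a, a gene of the Sca-1 locus, stood at 17 CPM in LMPP and at 0.727 to 1.05 in the others, and Fcgr3, which encodes CD16, at 36.0 to 46.1 CPM in GMP, 10.3 in CMP and 2.96 in LMPP.

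S100A8 and S100A9 are small calcium-binding proteins that pair into calprotectin, an abundant protein complex of the neutrophil cytosol. Calprotectin withholds zinc and manganese from microbes, carries arachidonic acid to the NADPH oxidase, and outside the cell acts on receptors such as TLR4. Neutrophils fill their granules in order, from azurophil (primary) granules at the promyelocyte stage to specific and then gelatinase granules. C/EBP factors and PU.1 drive these steps, and IRF8 favours the monocyte branch.

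The genes lie together on chromosome 3 and are transcribed toward each other. In the GENCODE M21 annotation (GRCm38), S100a8 (ENSMUSG00000056054) spans chr3:90668978-90670035 on the plus strand and S100a9 (ENSMUSG00000056071) chr3:90692632-90695721 on the minus strand. A gap of 22596 bases with 0 annotated genes separates them. Each has 3 exons in its first listed transcript, with a coding sequence of 267 bases (89 codons without the stop) for S100a8 and 339 bases (113 codons) for S100a9. Their promoters are printed because the genes moved together across cells while their ratio shifted. Each line gives 250 bases before and 10 bases from the RefSeq start site on (GRCm38.p6), 5′ to 3′ on the gene's own strand, with capitals for a match to the TATA box letters TATAAA. The S100a8 window is chr3:90668821-90669080 and the S100a9 window chr3:90695712-90695971. GENCODE starts its S100a8 transcript at 90668978, upstream of the RefSeq start at 90669071.
S100a8: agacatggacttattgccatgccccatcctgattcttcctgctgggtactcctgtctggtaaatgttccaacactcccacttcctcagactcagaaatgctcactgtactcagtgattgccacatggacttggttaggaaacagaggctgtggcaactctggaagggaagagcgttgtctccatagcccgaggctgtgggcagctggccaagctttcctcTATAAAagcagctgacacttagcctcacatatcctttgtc
S100a9: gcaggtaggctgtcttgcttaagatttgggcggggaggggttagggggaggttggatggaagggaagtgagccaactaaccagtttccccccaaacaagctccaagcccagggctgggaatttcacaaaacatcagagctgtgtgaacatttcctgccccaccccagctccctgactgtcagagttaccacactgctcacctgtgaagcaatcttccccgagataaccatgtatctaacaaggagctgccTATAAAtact

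Both windows held 1 TATAAA match. It began 30 bases before the RefSeq start in S100a8 and at the RefSeq start itself in S100a9. On either strand, 12.7% of 32851 mouse promoter windows of this length hold TATAAA. A C/EBP-type motif, TTGCNNAA on either strand (9.85% of promoters), matched once in S100a9, 236 bases before the start, and 0 times in S100a8. The PU.1-type letters GAGGAAG on either strand (11.1% of promoters) matched once in S100a8, 171 bases before the start, and 0 times in S100a9. The matches describe letters in these windows only.

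The pair was highest in the LMPP library, intermediate in GMP and lowest in CMP when all cells were summed. For S100a8, LMPP had 778 CPM and CMP 9.36 CPM, while GMP replicates 1, 2 and 3 had 129, 114 and 132 CPM (mean 125 ± 9.51, SD, n = 3). For S100a9, LMPP had 864 CPM and CMP 11.3 CPM, while the GMP replicates had 161, 108 and 131 CPM (133 ± 26.5, SD, n = 3). For both genes the LMPP value lay above and the CMP value below all GMP libraries. The CMP values rest on 749 S100a8 and 901 S100a9 UMIs, and every other library had 12546 or more of each gene.

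The library sums came from unlike distributions over cells. In LMPP, the 1% of cells with the most UMIs of the gene held 89.4% of the S100a8 and 88.9% of the S100a9 UMIs, and single cells reached 3220 and 3181. In CMP, 1 cell held 606 of the 749 S100a8 and 714 of the 901 S100a9 UMIs. In GMP the highest 1% of cells held 30.3% ± 2.48 (SD, n = 3) of S100a8 and 44.2% ± 2.0 of S100a9, and no cell exceeded 247 and 303 UMIs. S100a9 was the more concentrated gene in each GMP library, with 42.5% against 29.1% in replicate 1, 46.4% against 28.7% in replicate 2 and 43.7% against 33.2% in replicate 3. The LMPP curve in the plot of UMIs per cell runs flat over the range where the GMP curves fall steeply.

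**Figure D1:**
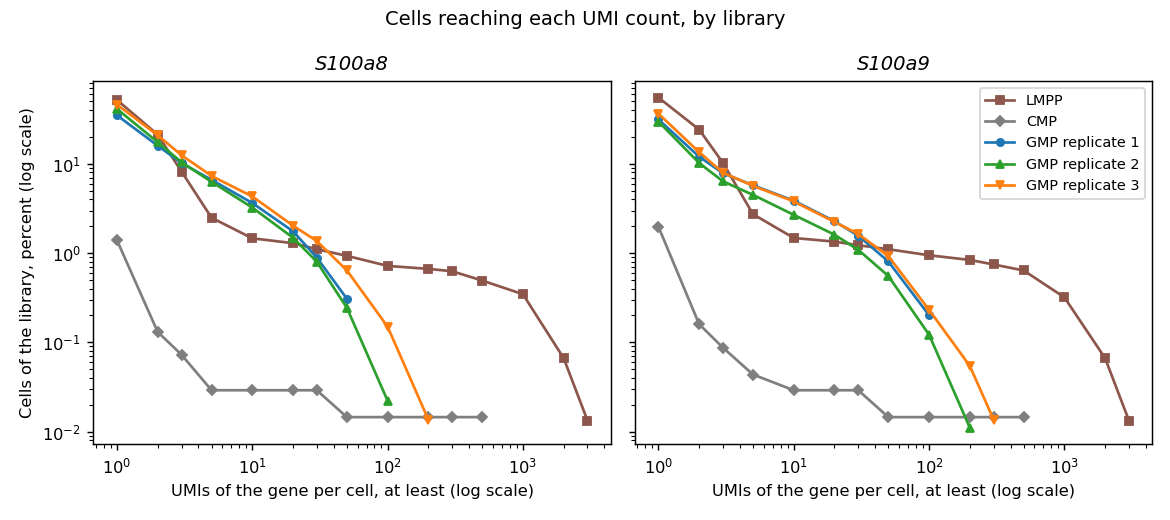
Percent of cells (y axis, log scale) with at least the given number of S100a8 (left) or S100a9 (right) UMIs (x axis, log scale), 1 line per library. LMPP reaches 3220 and 3181 UMIs in a cell, whereas GMP cells stay at or below 247 and 303.

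The cells at the top of the LMPP distribution carried genes of late neutrophil granules. Camp (cathelicidin), Ngp (neutrophilic granule protein), Ltf (lactoferrin) and Lcn2 (lipocalin-2) summed to 10 or more UMIs in 49 LMPP cells, 1 CMP cell and 0 GMP cells. A count of 0 allows up to 0.0356%, 0.0333% and 0.0409% of cells in GMP replicates 1, 2 and 3. The 49 LMPP cells held 55282 of 64742 S100a8 and 56774 of 71940 S100a9 UMIs. Their Elane, the azurophil granule protease neutrophil elastase, stood at 9508 CPM and Hlf, a stem cell regulator, at 71.6 CPM, against 490.6 CPM of Hlf in the other LMPP cells. Without these cells S100a8 was at 114 CPM and S100a9 at 183 CPM in LMPP. In CMP the values without the single cell were 1.79 and 2.34 CPM.

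Outside the late granule cells, UMIs of the pair were seen in LMPP cells of every large class, and 1 class held much of the rest. Over all LMPP cells, a UMI of S100a8 was seen in 52.0% and of S100a9 in 55.3%, more than in any other library. Without the late granule cells these shares were 51.7% and 55.0%. Thinned to 2000 UMIs per cell, which makes depths equal, the shares over all LMPP cells were 15.2% and 16.9%. They were 0.454% and 0.425% in CMP, and 12.7% ± 0.284 and 10.0% ± 1.57 in GMP (SD, n = 3). The thinned LMPP shares without the late granule cells were 14.6% and 16.4%. Cells were sorted into classes by fixed marker genes, at least 3 of 2000 UMIs of a list. In LMPP the thinned shares were 14.8% and 16.5% in the stem and multipotent class (Hlf, Mecom, Meis1), 13.4% and 14.2% in the lymphoid class (Dntt, Il7r, Ebf1, Cd79a) and 13.6% and 20.3% in the erythroid class. Median UMIs were 8295, 16188 and 28162 in these classes. Whether these shares come from RNA outside the cells was not tested. Camp in the other LMPP cells stood at 0.0736% of its level in the late granule cells, Ngp at 0.0602%, S100a8 at 0.113% and S100a9 at 0.176%. These other cells include the class described next, which raises the pair's values. S100a8 and S100a9 stood at 114 and 183 CPM over all of them. The pair stood at 83.0 and 86.2 CPM in the stem and multipotent class, 73.2 and 97.6 in the lymphoid class, and 54.0 and 76.5 in the erythroid class. A class of 194 LMPP cells with 20 or more of 2000 UMIs of Elane, Prtn3, Mpo and Ctsg and no other list stood apart, at 885 CPM of S100a8 and 2128 CPM of S100a9. It held 3391 of the 9460 S100a8 and 8154 of the 15166 S100a9 UMIs left outside the late granule cells.

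Within GMP, the pair followed the granulocytic class. Cells with azurophil granule genes only made up 71.1% ± 0.692 of GMP (SD, n = 3). They held S100a8 at 157, 136 and 163 CPM and S100a9 at 202, 132 and 167 CPM in replicates 1, 2 and 3. The monocyte class (Irf8, Csf1r, Ly86, F13a1, Ms4a6c, Klf4) held S100a8 at 46.8, 54.9 and 45.0 CPM and S100a9 at 28.7, 29.2 and 24.7 CPM. Basophil and mast cells (Prss34, Mcpt8, Cpa3 and others) held S100a8 at 31.3, 33.5 and 29.9 CPM and S100a9 at 33.2, 38.2 and 30.3 CPM. For both genes every value of the azurophil-only class lay above every value of the monocyte class and of the basophil and mast cell class. S100a8 was also higher in monocyte than in basophil and mast cells in all 3 libraries, whereas S100a9 was lower. With 3 paired libraries an exact permutation test cannot reach 0.05, so none was run.

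Depth differed between these classes. Median UMIs were 11266 to 15510 in the azurophil-only class, 11602 to 15538 in the monocyte class and 6220 to 7121 in basophil and mast cells. At 2000 UMIs per cell, S100a8 was seen in 14.9% ± 0.244 of azurophil-only cells, 8.19% ± 1.01 of monocyte cells and 5.11% ± 0.543 of basophil and mast cells (SD, n = 3). For S100a9 the shares were 11.8% ± 1.92, 5.05% ± 0.749 and 6.33% ± 0.630. The S100a9 share of the monocyte class was below that of basophil and mast cells in all 3 libraries, and its S100a8 share was above it in all 3. Whether the lower shares come from RNA outside the cells was not tested. In CMP, the azurophil-only class of 300 cells reached 8.90 CPM of S100a8 and 7.28 CPM of S100a9, below each of these 3 classes in every GMP library. These CMP values rest on 44 S100a8 UMIs in 2.33% of the cells and 36 S100a9 UMIs in 1.0%.

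**Figure D2:**
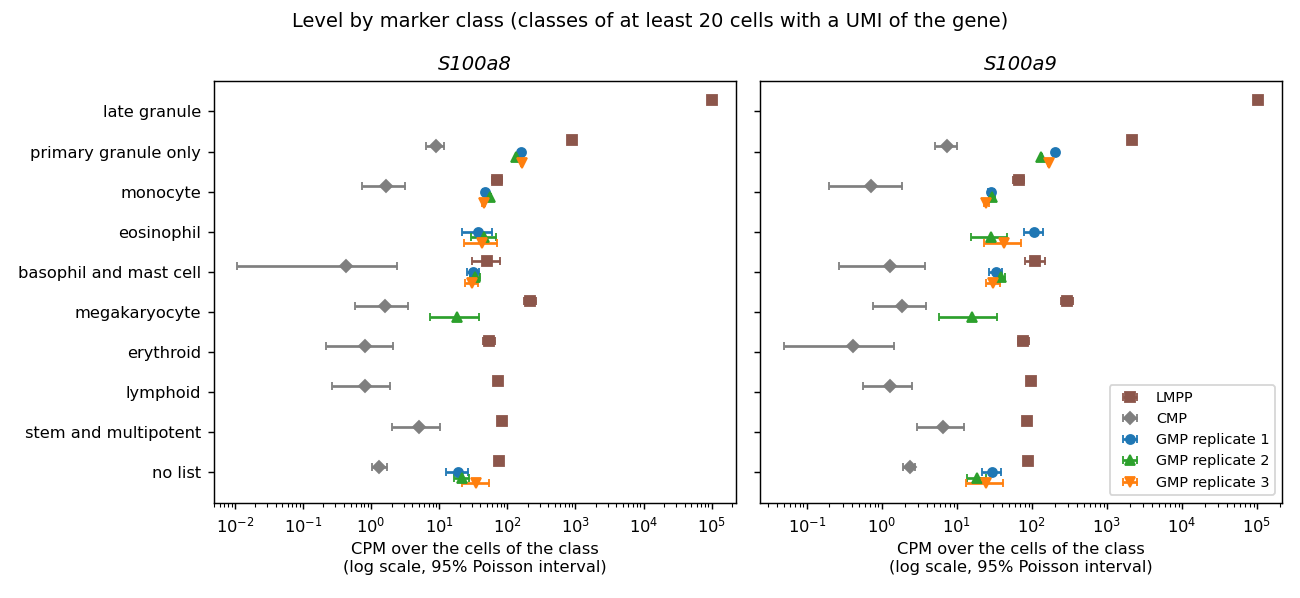
CPM of S100a8 (left) and S100a9 (right) over the cells of each marker class (x axis, log scale, bars are exact 95% Poisson intervals of counting error), with classes on the y axis and 1 symbol per library. LMPP late granule cells lie near 101721 and 104451 CPM, and in GMP the azurophil-only class (labelled primary granule only) lies highest for both genes.

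The balance between the genes was close to even over whole libraries. The ratio of S100a8 to S100a9 UMIs was 0.900 in LMPP (95% exact interval 0.890 to 0.910, counting error only), 0.831 in CMP (0.754 to 0.917), and 0.806, 1.06 and 1.01 in GMP replicates 1, 2 and 3. In the late granule cells of LMPP deep enough to be thinned, 48 in number, it was 0.974 (0.963 to 0.985), and in the LMPP cells outside all 49 it was 0.624 (0.608 to 0.640). The azurophil-only class of LMPP stood lowest, at 0.416 (0.399 to 0.433). Within GMP the ratio was 1.63, 1.88 and 1.82 in the monocyte class and 0.942, 0.878 and 0.989 in basophil and mast cells, so the classes did not share 1 ratio. The eosinophil class, with 41 to 71 cells a library, gave 0.354, 1.64 and 1.0, a spread too wide for a comparison.

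In GMP the ratio was lower in cells with more of the pair. The pair's UMIs in a cell were split by chance into 2 parts, cells were grouped by the pair's UMIs in the first part, and the ratio was read in the second. Groups with 1 UMI in the first part gave S100a8 to S100a9 ratios of 1.59, 2.04 and 1.57 in replicates 1, 2 and 3. Groups with 5 to 14 UMIs gave 1.01, 1.45 and 1.4. From 15 to 49 UMIs the ratios were 0.700, 0.768 and 0.829, and at 50 or more they were 0.413, 0.565 and 0.701. All 3 libraries moved from S100a8 excess to S100a9 excess between these levels, and replicate 1 was lowest at the top level. At 0 UMIs the ratios were 1.09, 1.66 and 1.36. LMPP gave 0.900 at 0 UMIs, 0.890 at 1 UMI and 0.899 at 50 or more, with 0.766 (0.654 to 0.897) at 15 to 49 UMIs in 25 cells.

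**Figure D3:**
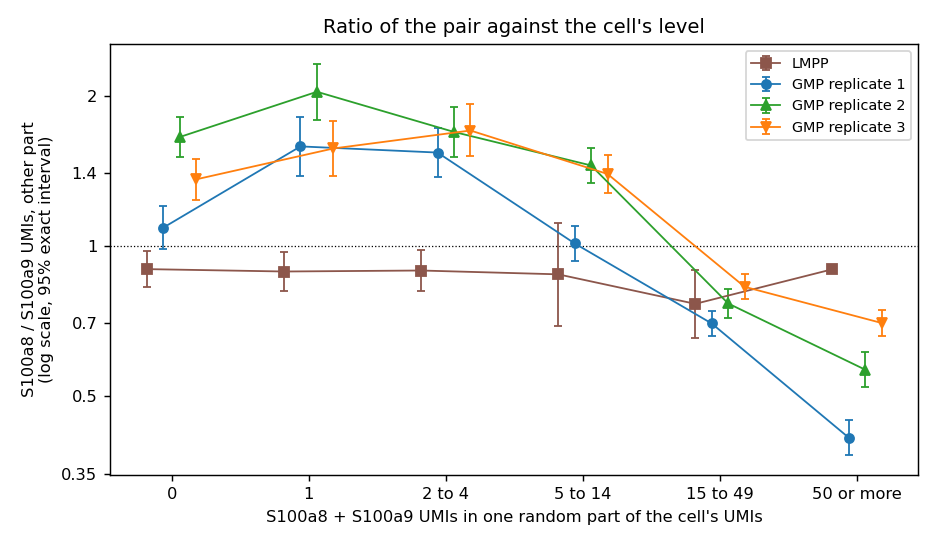
Ratio of S100a8 to S100a9 UMIs in the second random part of each cell's UMIs (y axis, log scale, bars are exact 95% intervals of counting error) against the pair's UMIs in the first part (x axis), for LMPP and the 3 GMP libraries. The GMP ratios go from 1.57 to 2.04 at 1 UMI to 0.413 to 0.701 at 50 or more, and the LMPP ratios stay between 0.766 and 0.900.

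The same order appeared along genes that are not part of the pair. GMP cells were grouped by their thinned UMIs of the specific and gelatinase granule list without Lyz2. By Pearson's r across GMP cells, described below, Lyz2 ran against the pair (mean -0.09). The genes kept include Wfdc21, Fcnb and Pglyrp1, which ranked 1, 2 and 4 of 8575 genes by r with the pair. The rise of both genes along this list is therefore not independent of that ranking. S100a8 was at 55.1 ± 5.14 CPM at 0 UMIs of the list, 110 ± 2.82 at 1 to 2, 288 ± 48.2 at 3 to 5 and 825 ± 311 at 6 to 10 (SD, n = 3). S100a9 spanned a wider range over the same groups, at 45.3 ± 7.52, 105 ± 15.4, 330 ± 71.8 and 1438 ± 489 CPM. The ratio in replicates 1, 2 and 3 went from 1.03, 1.38 and 1.28 at 0 UMIs to 0.487, 0.637 and 0.605 at 6 to 10, and the 2 ends did not overlap. The group at 6 to 10 UMIs held 137, 63 and 74 cells. Above it, 2, 1 and 1 cells gave ratios of 0.447, 1.46 and 2.25, so replicates 2 and 3 did not continue the fall there. These cells are too few for a comparison.

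Summed counts of both genes passed as higher in GMP than in CMP with edgeR's quasi-likelihood method. S100a8 differed by 4.04 ± 0.19 on the log2 scale (SE, adjusted p = 1.51e-05) and S100a9 by 3.87 ± 0.29 (adjusted p = 9.65e-05). In that comparison 32.5% of the 19739 genes tested passed an adjusted p of 0.05, with 13.5% higher and 19% lower in GMP. Without the late granule cells the differences grew to 6.42 and 6.13. All 2 residual degrees of freedom come from GMP, and the spread of the single CMP and LMPP samples is taken to equal theirs. Fewer cells of a type and less RNA per cell cannot be told apart in such sums.

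Against LMPP the direction depended on 49 cells. S100a8 was lower in GMP by -2.02 ± 0.13 (edgeR, adjusted p = 2.29e-05) and S100a9 by -2.08 ± 0.21 (adjusted p = 0.000152), where 57.1% of genes passed, 25.7% as higher and 31.4% as lower. Without the late granule cells S100a8 was higher in GMP by 0.75 ± 0.15 (adjusted p = 0.00338) and S100a9 did not pass, at 0.16 ± 0.22 (adjusted p = 0.565). By CPM alone the S100a8 values then lay side by side, 114 in LMPP and 114 to 132 in GMP. The gap to the fitted value comes with the scaling: relative to total UMIs, TMM factors (edgeR's trimmed mean scaling) moved the median gene from -0.69 to -0.09 against LMPP and from -0.33 to -0.04 against CMP. The counts of calls moved with it, from 2665 higher and 3747 lower to 1446 and 5953 against CMP, and from 5071 and 6204 to 2154 and 10230 against LMPP, when only total UMIs were used.

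Across single GMP cells, granule genes led those that followed the pair. Pearson's r of log-scaled UMIs with the summed pair was computed within each library for 8575 genes seen in at least 5% of cells of every GMP library, as a description over cells that share a library. Pearson's r between S100a8 and S100a9 themselves was 0.64, 0.61 and 0.63 in replicates 1, 2 and 3. Wfdc21, a small whey acidic protein of neutrophils, led with r of 0.51, 0.48 and 0.52 (mean 0.50). Fcnb (ficolin B, a lectin of granulocytes) followed with a mean of 0.40, Elane with 0.39, Pglyrp1 (a peptidoglycan-binding granule protein) with 0.38 and Clec4a2 (a C-type lectin receptor) with 0.38. The next were Prtn3 (proteinase 3) at 0.37, Nkg7 at 0.36, Ms4a3 at 0.35, Srgn (serglycin, the granule proteoglycan) at 0.34, Dstn (an actin-severing protein) at 0.34 and Tmsb4x (thymosin beta 4) at 0.33. Ctsg (cathepsin G), Rgcc, Prss57 and Clec12a closed the group of 15 at 0.32, 0.32, 0.32 and 0.30. Of these 15 out of 8575 ranked genes, 6 belong to the list of 8 genes named for azurophil granules, all 8 of which were ranked. Another 3 belong to the list of 17 specific and gelatinase granule genes. Only 7 of those 17 were seen in enough cells to be ranked, and Lyz2 among them ranked 8407. The list of 8 holds Elane, Prtn3, Mpo, Ctsg, Prss57, Ms4a3, Nkg7 and Cst7, and Nkg7 also stands among the fixed T and NK cell markers.

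The genes running against the pair were fewer and weaker. Over all 8575 genes the median r was -0.02, 39 genes exceeded 0.2 and 10 fell under -0.2. Tmsb10 (thymosin beta 10) was lowest, at -0.32, -0.34 and -0.34 in replicates 1, 2 and 3. Sox4, a transcription factor of immature progenitors, had a mean of -0.27, Lgals1 (galectin 1) -0.23, H2afy (a macroH2A histone) -0.23 and S100a10 -0.23. The pair's own r with log UMIs per cell was 0.10, 0.09 and 0.11, so depth moved only weakly with it. Among the 15 genes, 14 or 15 stayed under every other measure tried, although Elane and not Wfdc21 led by Spearman's rho (0.40) and after thinning (0.28). Leaving out late granule cells was 1 of these measures, but it removed no GMP cell and so repeats the main values.

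**Figure D4:**
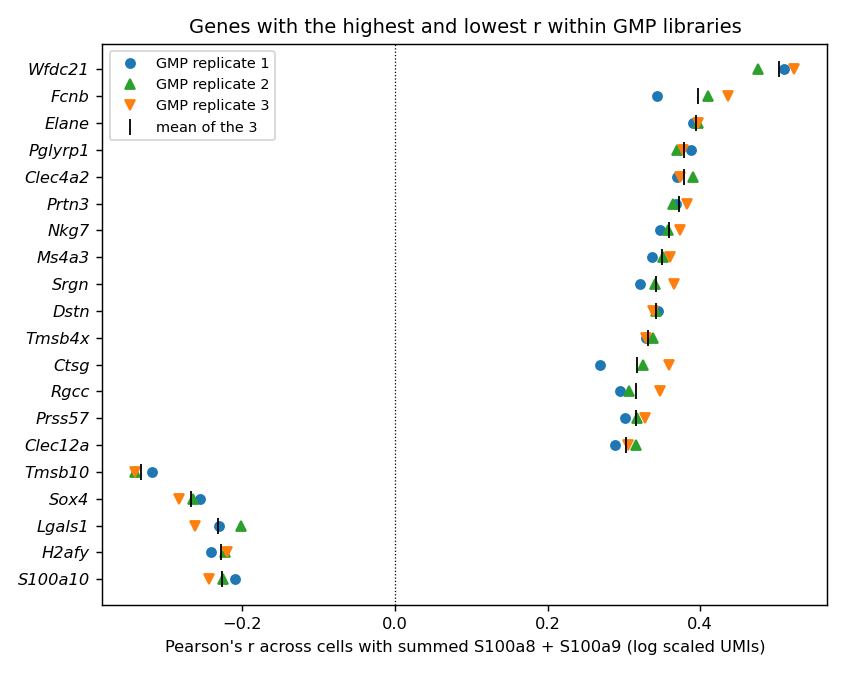
Pearson's r across cells (x axis) between each gene (y axis) and the summed S100a8 and S100a9, 1 symbol per GMP library and a tick for the mean. Wfdc21 is highest in every library (0.48 to 0.52) and Tmsb10 has the lowest mean (-0.33).

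Cells rich in UMIs of the pair were then set against cells with none after thinning. Bands were defined within each GMP library after thinning to 2000 UMIs: zero (0 UMIs of the pair), low (1 to 5) and high (6 or more). The high band held 202, 145 and 151 cells in replicates 1, 2 and 3, only 2.40%, 1.61% and 2.06% of the cells but 50.1%, 41.8% and 47.6% of the pair's UMIs. The zero band held 6578, 7371 and 5869 cells and the low band 1382, 1389 and 1235. By construction the pair differed over the bands, S100a8 with 37.5 ± 2.68, 275 ± 12.1 and 2282 ± 145 CPM (SD, n = 3), and S100a9 with 25.1 ± 2.35, 234 ± 26.7 and 3419 ± 358 CPM. Just below the border lay 36, 45 and 33 cells with 5 UMIs, and just above it 31, 22 and 23 with 6. The ratio of S100a8 to S100a9 in the zero and high bands was 1.28 and 0.579 in replicate 1 and 1.71 and 0.672 in replicate 2. In replicate 3 it was 1.51 and 0.770. These ratios use all UMIs of the cells, including those that set the bands, so they are no separate reading of the shift.

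The high band held almost only azurophil-only cells. Azurophil-only cells made up 70.1%, 70.7% and 69.7% of the zero band and 99%, 95.9% and 100% of the high band. Monocyte markers summed to 692, 626 and 765 CPM in the zero band and 215, 190 and 192 in the high band, and basophil and mast cell markers to 293, 378 and 303 CPM and to 60.1, 86.4 and 69.5. Late granule markers summed to 9.18, 11.6 and 11.5 CPM and to 24.9, 20.7 and 27.6. Comparisons between bands therefore hold a change in the mix of classes, and its part in the results was not tested. Median UMIs differed little, at 10837, 12823 and 15069 in the zero band and 10820, 13247 and 15798 in the high band.

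Between the high and zero bands, 2066 genes were higher and 1835 lower of 13193 tested (edgeR quasi-likelihood test with library as a block, the pair left out). The share called was 29.6%, with 15.7% higher and 13.9% lower. Scaled by total UMIs alone, 885 were higher and 4726 lower, as the median gene moved from -0.04 to -0.29. Wfdc21 stood at 13.6, 13.2 and 13.8 CPM in the zero bands and at 217, 207 and 227 CPM in the high bands, a log2 difference of 4.25 ± 0.06 (SE, edgeR adjusted p = 8.11e-229). The bands of Wfdc21 did not overlap. Fcnb went from 8.91, 12.2 and 13.6 CPM to 102, 173 and 180 (3.94 ± 0.07), and Vcam1, an adhesion molecule, from 12, 11.7 and 10.5 CPM to 69.1, 76.0 and 67.9 (2.88 ± 0.09). Clec4a2 rose by 2.43 ± 0.05, Rflnb (refilin B, a filamin partner) by 2.23 ± 0.07, Mrgpra2b (a receptor of neutrophils) by 2.14 ± 0.09 and Pglyrp1 by 2.11 ± 0.03. Mgst2 (a microsomal glutathione transferase), Trem3 and Nucb2 rose by 2.01, 1.77 and 1.76. All 10 were higher in the high band of every library, which the rule for naming them required.

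The genes that fell included markers of other branches and of immature cells. Prss34, a basophil protease, stood at 44.8, 62.0 and 53.2 CPM in the zero bands and 6.48, 7.95 and 7.94 in the high bands (-2.58 ± 0.18). Cpa3, the mast cell carboxypeptidase, differed by -2.27 ± 0.10 and Prg2, an eosinophil granule protein, by -1.62 ± 0.09. Irf8, the regulator of the monocyte branch, fell from 238, 198 and 258 CPM to 54.0, 42.2 and 42.5 (-2.08 ± 0.07), and Ms4a6c, a monocyte marker, by -1.77 ± 0.07. Sox4 differed by -2.20 ± 0.07 and Cd34, the surface marker of the gate, by -1.93 ± 0.09. Ifitm1, Ighm (the immunoglobulin mu chain) and Serpinf1 differed by -1.80, -1.73 and -1.63. None of these 10 was higher in the high band of any library, which the naming rule also required.

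Differences in the low band were smaller. Of 13193 genes 23.8% were called against the zero band, 1797 higher (13.6%) and 1341 lower (10.2%). The 2 band comparisons share the zero band, so their values are given side by side only. Wfdc21 differed by 1.99 ± 0.04 (edgeR adjusted p = 1.32e-161) in the low band against 4.25 in the high band, Clec4a2 by 1.16 against 2.43, and Pglyrp1 by 0.92 against 2.11. Nkg7 differed by 0.72 against 1.60, Rgcc by 0.66 against 1.63 and Prss57 by 0.65 against 1.42. Among genes that fell, Cpa3 differed by -0.74 against -2.27, Sox4 by -0.58 against -2.20 and Irf8 by -0.42 against -2.08. Ctla2a, Apoe (apolipoprotein E) and Klf6 fell in the low band too, by -0.50, -0.44 and -0.40. These calls leaned on the block: without it 38 genes were higher and 2 lower in the low band, and 863 higher and 684 lower in the high band. Scaled by total UMIs, 678 were higher and 3997 lower in the low band.

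Other S100 genes did not move as a family. Of 14 listed members, 7 passed the low-count filter for the bands. Of these, 4 were higher and 3 lower in the high band (15.7% and 13.9% of all genes), with a median of 0.71 against -0.04 over all genes. S100a11 went from 296 ± 57.9 CPM to 531 ± 98.2 (1.09 ± 0.04) and S100a1 from 165 ± 7.59 to 298 ± 21.1 (1.10 ± 0.04). S100a13, at 138 ± 16.1 and 189 ± 28.0 CPM, rose by 0.71 ± 0.05. S100a10, the partner of annexin A2, fell from 209 ± 14.7 to 72.7 ± 12.4 CPM (-1.28 ± 0.06), and S100a6 (calcyclin) from 9.37 ± 1.77 to 2.82 ± 0.580 (-1.5 ± 0.28). S100a3, at 1.26 and 2.50 CPM, and S100a4, at 2.31 and 0.751 CPM, passed narrowly (adjusted p = 0.0187 and 0.0463), and each lost the call under 6 alternatives. S100a3 overlaps S100a2 in the annotation, so its reads are uncertain. S100a5, S100a7a, S100a14, S100a16, S100b, S100g and S100z were too low to test.

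The pair's neighbours on chromosome 3 had levels of their own. S100a7a, the nearest S100 gene upstream of S100a8, had 0 to 2 UMIs in any library. S100a6, next in line, had 62.9 CPM in LMPP, 23.3 CPM in CMP and a mean of 8.74 ± 1.75 over GMP (SD, n = 3), and S100a4 had 12.2, 7.79 and 2.16 ± 0.544 CPM. Both were lower in GMP than in CMP, by -1.10 ± 0.22 and -1.54 ± 0.27 (edgeR adjusted p = 0.00679 and 0.00395). S100a1, with 60.6 CPM in LMPP against 96.3 in CMP and 175 ± 9.37 over GMP, was higher by 1.17 ± 0.15 (adjusted p = 0.000978). Of the 8 members tested between libraries, 3 were higher and 4 lower in GMP than in CMP, where 13.5% of all genes were higher and 19% lower. Against LMPP, 4 were higher and 3 lower, where 25.7% of all genes were higher and 31.4% lower.

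Receptors and partners of calprotectin were mostly low and did not follow it. Of 8 listed genes 5 could be tested between bands, and 1 passed (edgeR), where 29.6% of all genes did, with a median of 0.06 against -0.04 over all genes. Cd14, the lipopolysaccharide coreceptor that works with TLR4, went from 17.4 ± 2.77 to 9.94 ± 2.22 CPM (-0.59 ± 0.17, edgeR adjusted p = 0.00255), a call lost under 4 alternatives. Bsg (basigin, a receptor of S100A9) was the most abundant, at 311 ± 11.3 and 273 ± 13.7 CPM, and did not pass (0.06 ± 0.04). Tlr4 stood at 1.35 CPM and Ly96 (MD-2, its partner) at 1.98 CPM in the zero band, and neither passed. Between libraries, Cd14 was higher in GMP, at 16.9 ± 2.41 CPM against 4.09 in CMP and 2.74 in LMPP, and Cd33 was lower, at 1.21 ± 0.212 against 3.79 and 11.8.

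Some subunits of the NADPH oxidase rose. Cyba, the p22 membrane subunit, went from 411 ± 25.6 to 655 ± 21.3 CPM between the zero and high bands (0.92 ± 0.03), and Ncf4 from 167 ± 5.89 to 223 ± 11.7 (0.67 ± 0.05). Rac2, the small GTPase of the complex, rose by 0.64 ± 0.03 and Ncf1 by 0.51 ± 0.06. Of all genes tested, 15.7% were higher in the high band. Cybb, the catalytic subunit, stood at 34.8 ± 4.32 and 29.5 ± 4.55 CPM and did not pass (0.0049 ± 0.10, edgeR adjusted p = 0.983). The shares of all genes called higher between libraries are given above. In those comparisons Cybb, Cyba, Ncf1, Ncf4 and Rac2 were each higher in GMP than in CMP and than in LMPP. Of these, Cybb differed most from CMP, by 3.96 ± 0.20 (edgeR adjusted p = 2.25e-05).

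Regulators moved in both directions. Of 11 listed factors, 5 were higher and 4 lower in the high band, where 15.7% of all genes were higher and 13.9% lower. Their median was 0.13 against -0.04 over all genes. Cebpe, the C/EBP factor of specific granules, went from 141 ± 14 to 232 ± 36.5 CPM (0.97 ± 0.05). Gfi1, a repressor needed for neutrophils, went from 14.8 ± 2.67 to 25.1 ± 3.40 CPM (1.0 ± 0.12), Cebpd from 66.5 ± 12.7 to 94.2 ± 16.6 (0.75 ± 0.06) and Cebpb from 27.7 ± 3.72 to 33.8 ± 5.85 (0.54 ± 0.10). Myb, the most abundant of them, rose by 0.35 ± 0.04. Klf4, a monocyte factor, fell from 10.4 ± 1.37 to 2.14 ± 0.645 CPM (-1.99 ± 0.29), and Runx1 from 64.6 ± 8.96 to 31.6 ± 9.26 (-0.78 ± 0.09). Cebpa, which opens the granulocytic programme, fell by -0.35 ± 0.11, a call lost under 4 alternatives. Spi1, which encodes PU.1, differed by 0.03 ± 0.05 and Stat3 by 0.13 ± 0.12, and neither passed. Between libraries, Cebpe was higher in GMP (148 ± 14.9 CPM) than in CMP (6.14) by 4.89 ± 0.19, and than in LMPP (11.9) by 4.25 ± 0.18.

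Genes of the azurophil granule list were higher with calprotectin, with Mpo as the exception in size. All 8 members passed as higher in the high band, as did 15.7% of all genes. Their median was 1.27 against -0.04 over all genes. Elane went from 10652 ± 908 to 24758 ± 2415 CPM (1.46 ± 0.03), Prtn3 from 9400 ± 500 to 17650 ± 1285 (1.16 ± 0.03) and Nkg7 from 626 ± 13.4 to 1604 ± 74.4 (1.60 ± 0.03). Mpo (myeloperoxidase) stood at 7323 ± 924 and 7073 ± 1312 CPM. Its fitted difference was 0.19 ± 0.03, and -0.06 when scaled by total UMIs. Its mean r with the pair was 0.07, against 0.39 for Elane and 0.37 for Prtn3. Mpo was named after its values were seen.

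Specific and gelatinase granule genes moved in both directions. Of 17 listed, 12 could be tested between bands, and 8 were higher and 3 lower, where 15.7% of all genes were higher and 13.9% lower. Their median was 1.29 against -0.04 over all genes. Beside Wfdc21, Fcnb and Pglyrp1, Hp (haptoglobin) went from 275 ± 18.4 to 468 ± 29.4 CPM (1.02 ± 0.04), Lcn2 from 9.97 ± 1.68 to 22.3 ± 3.02 (1.41 ± 0.14) and Anxa1 (annexin A1) from 81.1 ± 15.4 to 103 ± 16.8 (0.59 ± 0.06). Camp and Chil3 also passed, at 1.28 and 1.43 CPM in the high band. Lyz2, the lysozyme of monocytes and granulocytes, fell from 128 ± 20.4 to 69.6 ± 20.5 CPM (-0.63 ± 0.07). Ifitm6 and Mmp8, at 0.806 and 0.132 CPM in the high band, were also lower, and Ngp did not pass. Ltf, Cd177, Mmp9, Itgb2l and Retnlg were too low to test. Between libraries, 6 of 16 tested members were higher in GMP than in LMPP and 8 lower (25.7% and 31.4% of all genes), with a median of -0.69 against -0.09 over all genes. The LMPP sums of Camp, Ngp, Ltf and Lcn2 came mostly from the 49 late granule cells, which these same genes define. Those cells held 19695, 18696, 1478 and 3909 UMIs of the 4 genes, and the other 7462 LMPP cells held 2201, 1708, 206 and 544. Against CMP, 10 of the 16 were higher and 3 lower (13.5% and 19% of all genes), with a median of 2.02 against -0.04. The 3 lower ones, Camp, Ngp and Ltf, stood at 7.36, 7.54 and 0.225 CPM in CMP with 526, 544 and 11 UMIs in its single late granule cell.

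**Figure D5:**
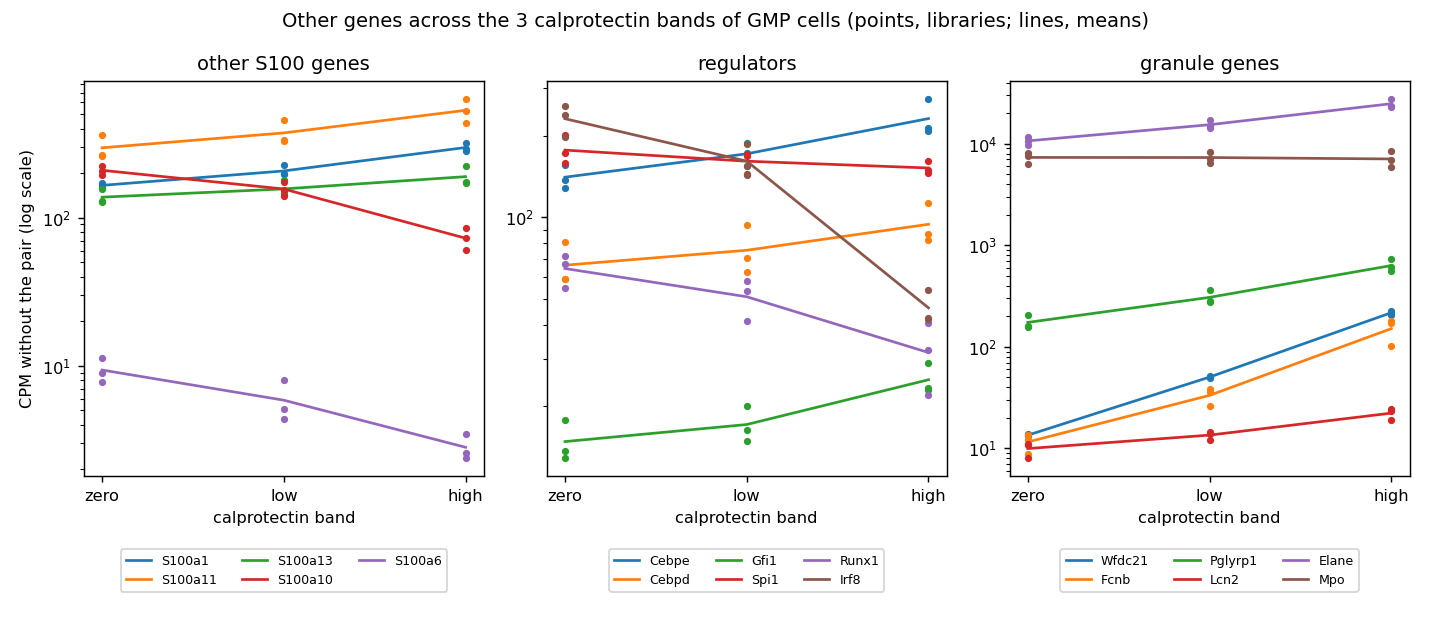
CPM without the pair (y axis, log scale) in the zero, low and high calprotectin bands (x axis) for S100 genes (left), regulators (middle) and granule genes (right). Points are the 3 GMP libraries and lines their means: Wfdc21 rises from 13.5 to 217 CPM and Irf8 falls from 231 to 46.2 CPM, whereas Mpo stays near 7323 CPM.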

How the data were processed

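Deposited values are counts: whole UMIs per gene and barcode from 10x Genomics 3′ v3 libraries, per the labels' protocols. Per the submitters' processing notes, the authors used Cell Ranger 3.1.0, Seurat 3.1.1 and mm10, while the file headers name Cell Ranger 6.1.1. How barcodes were kept is not given in the sources used here. Barcodes under 500 genes or 1000 UMIs or over 10% mitochondrial UMIs were removed, as were doublets called from simulated doublets (0.8% per 1000 barcodes). Marker classes, bands and thinned shares use cells thinned to 2000 UMIs, leaving out shallower cells. Counts were summed per library, or per library and band, and tested with edgeR 4.0.16 (quasi-likelihood, TMM, filterByExpr, prior count of 2, Benjamini-Hochberg over all genes tested, threshold 0.05; R 4.3.3). Band fits have 4 residual degrees of freedom, and edgeR moderates each gene's variance toward that shared by all genes tested. The very small p-values between bands therefore rest largely on this shared variance. They do not measure only how a gene's band difference varies over the GMP libraries. Log2 differences are fitted and need not equal CPM ratios. Intervals and limits cover counting error only. On simulated data 74.5% (GMP against CMP, 18320 genes), 80.0% (against LMPP, 19378 genes) and 95.5% (high against zero, 13249 genes) of 200 2-fold changes were recovered, with 8, 2 and 15 false calls.

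Named were all S100 genes of the list, up to 4 members of each other list (2 by size of change and 2 by level), per band contrast the 10 largest changes in each direction that were past the threshold, in 1 direction in all 3 libraries and at 50 CPM or more in the higher band, and the 15 highest and 5 lowest mean r. Predicted and mitochondrial genes were counted only. Further list members were named after their values were seen, and 1 list member is not reported here. The genes, lists and rules were chosen with earlier results of these data known. Alternatives were other scalings (DESeq2 1.42.0 size factors, total UMIs), the DESeq2 Wald test, no low-count filter, all barcodes, doublets kept, other band borders and thinning depths, no block, late granule cells left out and each GMP replicate left out.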

Additional observations from a re-analysis of the deposited data

How the results depend on the processing

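Alternatives for GMP against CMP kept the direction and the call of both genes, as did those for GMP against LMPP other than leaving out late granule cells. Against LMPP, S100a8 was 0.75 and S100a9 0.16 without the cells with 10 or more late granule UMIs, 0.81 and 0.24 with a border of 5 UMIs (71 LMPP cells left out), and 0.54 and -0.081 with a border of 20 (45 cells). The borders of 5 and 20 and the thinned ratios were chosen after seeing the data. For the high band, 3901 calls became 1547 with no replicate block and 2260 with the border at 12 UMIs, and for the low band 3138 became 40 with no replicate block, 2063 with the border at 3 UMIs and 1474 by the DESeq2 Wald test. Without GMP replicate 1, 4211 genes were higher and 4764 lower against CMP. No paired analysis was possible because CMP and LMPP have 1 library each. Mpo was -0.057 in the high and -0.00308 in the low band when scaled by total UMIs. Over 138 results on named genes, 1646 values under alternatives held 1525 with the call kept, 98 with a call lost, 21 gained and 2 reversed. Reversal was counted only for results past the threshold in the main fit. Sign changes of results not past it were not counted. Leaving out late granule cells removed no GMP cell, so its band values repeat the main fit and are among those kept. Thinned, the mean share of GMP cells with a UMI was 12.7% for S100a8 and 10.0% for S100a9, against 40.8% and 32.6%. The LMPP ratio was 0.949 thinned, 0.624 without late granule cells and 0.783 as the median of cells, and the CMP ratio 0.919 thinned. In CMP outside 1 cell the values rest on 143 S100a8 and 187 S100a9 UMIs.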

Other observations

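The genes of the sort gates did not move together over the calprotectin bands of GMP. Cd34 fell from 105 ± 10.7 CPM in the zero band to 66.7 ± 9.84 in the low band and 23.2 ± 3.44 in the high band (SD, n = 3). Kit, the receptor c-Kit, was at 45.3 ± 5.32, 38.3 ± 5.14 and 36.5 ± 5.21 CPM, and its fitted difference between the high and zero bands was -0.05 ± 0.09 (edgeR adjusted p = 0.727). Fcgr3 was at 39.9 ± 4.72, 45.4 ± 5.59 and 50.3 ± 12.2 CPM and passed as higher in the high band (0.59 ± 0.08, adjusted p = 2.45e-10). Fcgr2b was at 31.5 ± 5.13, 30.8 ± 5.74 and 33.4 ± 9.88 CPM, and its call (0.35 ± 0.10, adjusted p = 0.00352) was lost under 7 alternatives. These 4 genes were chosen after their values were seen.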
